A study of Mus musculus with 15 samples.

Results

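The genes described here are 38 markers of nerve cells, followed from the axon to the synapse in mouse corpus callosum after focal white matter injury. They were chosen by gene symbol, and all 38 were among the 33321 entries of the deposited count table. Cplx2 has 2 entries there, and the one with more counts stands for it below. All 38 also passed the filter on low counts that left 16795 genes for testing. By role they were 4 neurofilament subunits (Nefl, Nefm, Nefh, Ina), 7 other axonal genes (Tubb3, Mapt, Stmn2, Stmn3, Gap43, Kif5a, Scn8a), 4 genes of the cell body, dendrite or whole neuron (Map2, Rbfox3, Uchl1, Thy1), 12 presynaptic genes (Snap25, Syt1, Syn1, Syn2, Stx1a, Vamp2, Syp, Sv2a, Sv2b, Cplx1, Cplx2, Sncb), 9 postsynaptic genes (Grin1, Grin2a, Grin2b, Gria1, Gria2, Camk2a, Camk2b, Dlg4, Nrgn) and 2 genes of GABA synthesis (Gad1, Gad2). The first 2 roles make up the 11 axonal members, and the presynaptic and postsynaptic roles make up the 21 synaptic members.

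The corpus callosum is a tract of myelinated axons whose cell bodies lie in the cortex. Neurofilaments are the intermediate filaments that set axon calibre, whereas most synaptic proteins act at terminals and dendritic spines, which are far denser in grey matter than in white matter. Messenger RNA for both kinds of protein is made in the neuron's nucleus and lies mainly in its cell body, with smaller pools in dendrites and axons, so a tract sample draws it from axons and from any neurons at its border.

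The series held 15 libraries, 3 in each of 5 groups. Sham_Ipsil was tissue at the site of a saline injection in sham-operated mice. LPC_Ipsil was the injection site of lysophosphatidylcholine (LPC), a detergent-like lipid that strips myelin, and LPC_Contra was the site contralateral to it. LNIO_Ipsil was the injection site of L-NIO, an inhibitor of nitric oxide synthase given to constrict vessels and cause a white matter stroke, and LNIO_Contra was its contralateral site. Tissue of the injured and contralateral groups was collected on day 4, and the labels give no separate day for sham tissue. Strain, sex and age were not given in the sources used here. Whether each library is a mouse of its own is not stated, so p-values measure the spread between these libraries, which may be technical. The saline control was sampled on its injected side, so a contralateral site differs from it in side as well as in injury.

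Library totals ran from 14896445 to 20916606 counts, and the 38 genes took 1.77% to 2.45% of them. Levels are CPM, counts scaled to the library total, after trimmed mean of M-values (TMM) scaling. Genes were tested with edgeR's quasi-likelihood test over all 15 libraries, and calls were made at a p under 0.05 after Benjamini-Hochberg adjustment over the 16795 genes. A set of 10 markers of mature oligodendrocytes, the myelin-forming cells of the tract, summed to 16400 to 32200 CPM across the libraries. Markers of neurons outside the tract were present too: 9 markers of cortical excitatory neurons summed to 807 to 1355 CPM, and 9 markers of striatal projection neurons summed to 441 to 3055 CPM. The striatal sum ran from 441 to 2509 CPM within the sham group alone, so striatal transcripts were unequal between libraries of 1 group. Some libraries stood apart from their group. Sham_Ipsil replicate 1 differed from the other sham libraries by a chi-square per degree of freedom of 28.5 and 30.8, against 10.1 between those, and had the lowest striatal sum of the 15 libraries and an oligodendrocyte sum of 26220 CPM, against 16400 and 17010. LPC_Ipsil replicate 3 had a summed level of 8 microglial markers of 385 CPM, against 3383 and 2083 CPM in replicates 1 and 2. LPC_Contra replicate 2 differed from the other LPC_Contra libraries by a chi-square per degree of freedom of 58.3 and 58.8, against 16.6 between those other libraries. LNIO_Ipsil replicate 1 differed from the other LNIO_Ipsil libraries by a chi-square per degree of freedom of 47.7 and 38.6, against 22.9 between those. Counts and medians of the comparisons that rest on these libraries are given below with and without them.

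At the LPC site the neuron genes lay lower than at the saline site as a group, and 4 of them fell past the threshold. These were Nefl, the light neurofilament subunit, Sv2b, a synaptic vesicle glycoprotein, Gria1, an AMPA receptor subunit, and Grin2a, an NMDA receptor subunit. Of all genes tested, 0.994% were called lower in this comparison and 4.19% were called higher, while of the 38 members 4 were called lower and 0 were called higher. At an unadjusted p under 0.05 there were 15 members lower, against 7.43% of all genes, and 0 higher. In 16 members every LPC_Ipsil library lay below every sham library, which held for 13.5% of all genes. Log2 fold changes were below 0 in 35 of 38 members, with a median of -0.26 over members and 0.01 over all genes tested. The 3 exceptions were Kif5a (0.30), Dlg4 (0.05) and Gad2 (0.15), none of which was called. In tissue of mixed cell types, fewer cells of a type and less RNA per cell cannot be told apart.

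The 4 calls at the LPC site depended on single libraries. Without Sham_Ipsil replicate 1, 2 or 3, or without LPC_Ipsil replicate 1 or 2, edgeR called 0 of the 38 members, against at most 0.00585% of all genes, with 20, 11, 13, 11 and 10 members lower at an unadjusted p under 0.05. Of all genes, 5.81%, 8.25%, 7.98%, 3.79% and 5.14% were then lower at that p. Without Sham_Ipsil replicate 1 the members had a median of -0.38, with 36 of 38 below 0. Without LPC_Ipsil replicate 3, the library with few microglial transcripts, it called 9 lower against 1.79% of all genes: Nefl, Stmn2, Thy1, Snap25, Syt1, Sv2b, Grin2a, Gria1 and Gria2. The median over members was then -0.32. DESeq2 called 10 lower against 2.28% of all genes, and limma on log2(FPKM + 0.1) called 0, against 0.00595%, with 13 lower at an unadjusted p under 0.05, against 6.69%. FPKM are the authors' fragment counts scaled by transcript length and library size. With no filter on low counts (0.425% of all genes) or with the replicate number as a block (0.75%), edgeR called Sv2b and Grin2a. The number of members below 0 was 32 to 36 of 38 across these settings.

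**Figure D1:**
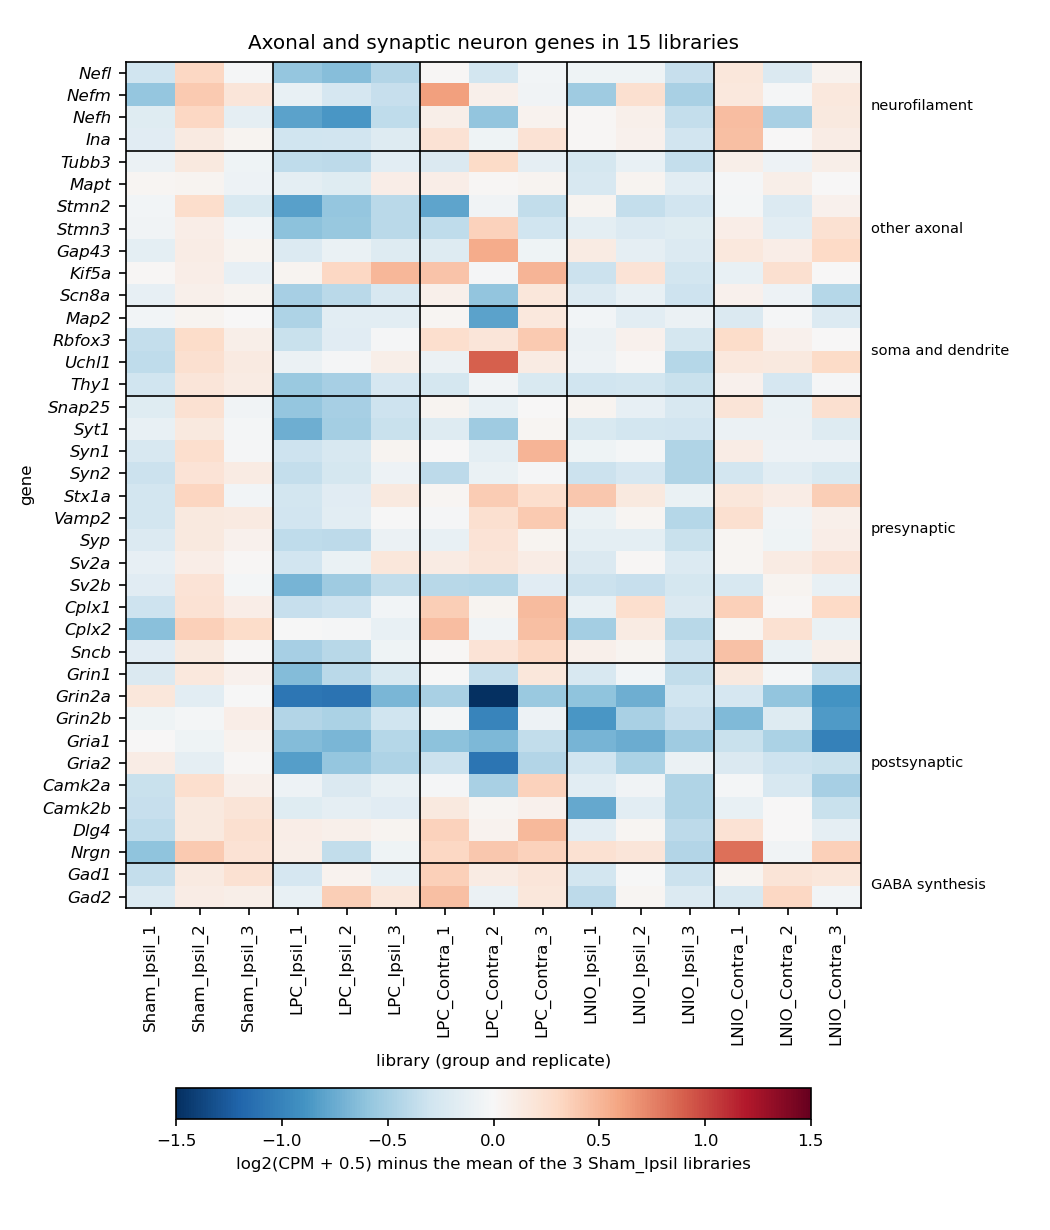
Heat map of the 38 genes (rows, ordered by role) in the 15 libraries (columns, ordered by group). Colour is log2(CPM + 0.5) minus the mean of the 3 sham libraries, red above and blue below. The LPC_Ipsil columns are mostly blue from Nefl to Grin1, and the rows of Grin2a, Gria1 and Gria2 are mostly blue in all 4 groups outside sham.

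At the L-NIO site most of the 38 genes were also below the saline site, and edgeR called 0 of 38, as it did of all genes tested (0%). Log2 fold changes were below 0 in 37 of 38 members, the exception being the syntaxin gene Stx1a at 0.14. The median was -0.19 over members and -0.02 over all genes. At an unadjusted p under 0.05 there were 7 members lower, against 3.1% of all genes: Gria1, Camk2b, Syn2, Sv2b, Grin2b, Grin2a and Thy1. Groups did not overlap in 8 members, against 7.86% of all genes. DESeq2 called 1 member lower, Gria1, against 0.186% of all genes, and limma called 0. In edgeR fitted to these 2 groups alone Gria1 was also called, against 0.154% of all genes. Without Sham_Ipsil replicate 1 edgeR called 0, 37 of 38 members were below 0 with a median of -0.28, and 11 were lower at an unadjusted p under 0.05, against 4.07% of all genes. Without Sham_Ipsil replicates 2 and 3 in turn, 34 and 36 were below 0, with medians of -0.13 and -0.20. Members lower at that p then numbered 4 and 3, against 2.67% and 2.31%. Without LNIO_Ipsil replicates 1, 2 and 3 in turn, 36, 37 and 31 were below 0, with medians of -0.19, -0.24 and -0.13. Those lower at that p numbered 2, 4 and 4, against 1.78%, 2.73% and 2.45%, and edgeR called 0 members in each of these fits.

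At the contralateral sites the members lay on both sides of the saline level. In LPC_Contra 18 of 38 members were below the saline site, with a median of 0.04, and in LNIO_Contra 17 of 38 were, with a median of 0.02. Both medians turned sign without Sham_Ipsil replicate 1, to -0.05 with 22 of 38 below in LPC_Contra and to -0.09 with 26 of 38 below in LNIO_Contra. Without LPC_Contra replicate 2, 14 of 38 members were below the saline site in LPC_Contra, with a median of 0.08. edgeR called 0 members in either, against 0.00595% and 0% of all genes. DESeq2 also called 0 members in both, against 0.136% and 0.00402% of all genes, and limma called 0. In LPC_Contra 4 members lay wholly below sham, against 8.07% of all genes, and in LNIO_Contra 4 did, against 5.13%. At an unadjusted p under 0.05 there were 4 members lower in LPC_Contra (Gria1, Grin2a, Gria2 and Sv2b, against 5.43% of all genes) and 3 lower in LNIO_Contra (Gria1, Grin2b and Grin2a, against 1.67%). Without Sham_Ipsil replicate 1 edgeR called 0 in both, with 6 lower at that p in LPC_Contra against 2.7% of all genes and 3 in LNIO_Contra against 1.73%. Without LPC_Contra replicate 2 it called 0 in LPC_Contra, with 5 lower at that p against 3.59%. All 4 comparisons use the same 3 sham libraries, so they are not independent of one another.

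**Figure D2:**
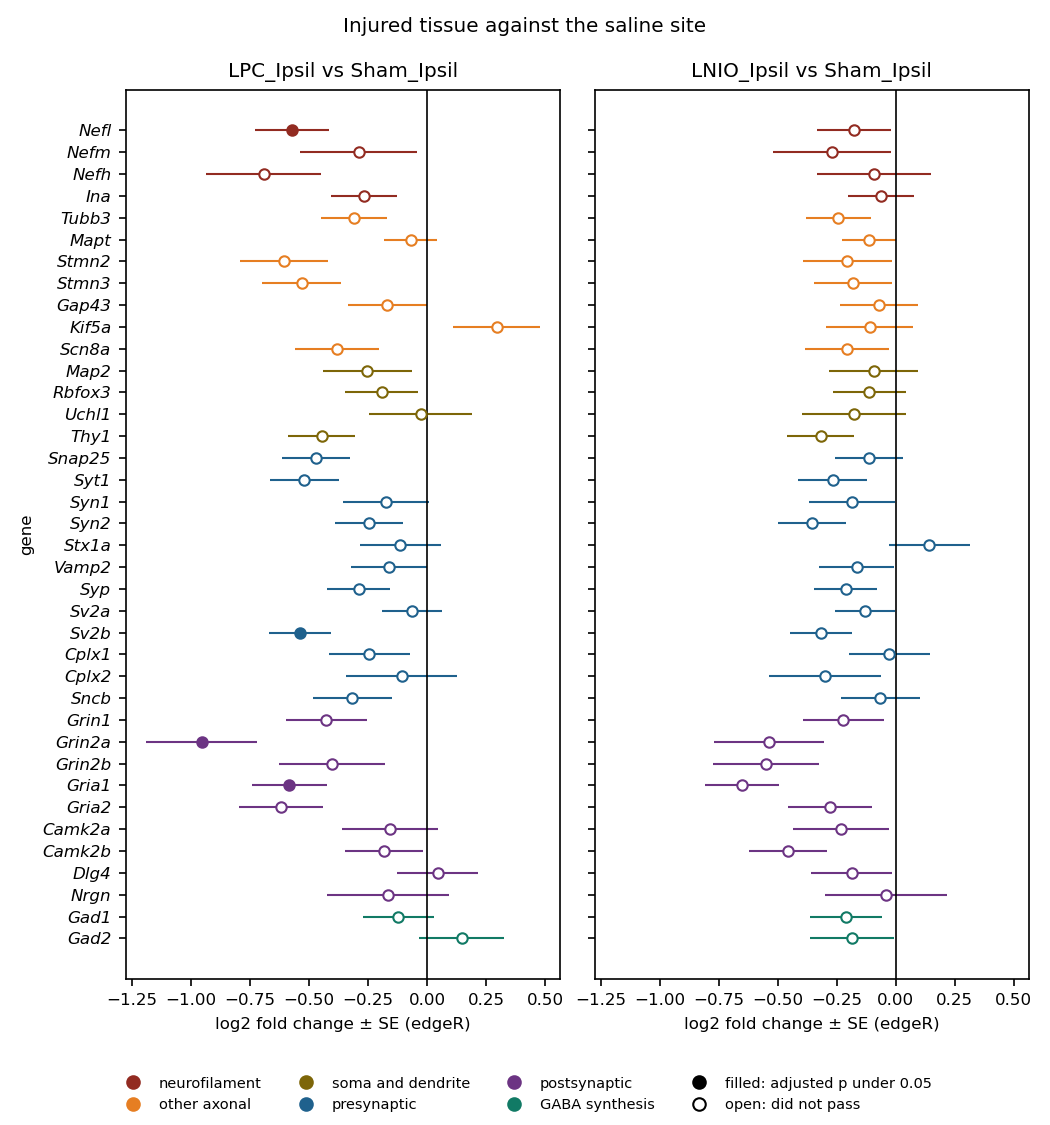
Log2 fold change ± SE from edgeR for each of the 38 genes (rows, coloured by role), at the LPC site (left) and the L-NIO site (right), each against the saline site. Filled points passed an adjusted p under 0.05: Nefl, Sv2b, Grin2a and Gria1 at the LPC site and no gene at the L-NIO site. Most points lie left of 0 in both panels.

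Among the neurofilament subunits, Nefl was measured at 192.5, 293 and 234 CPM in the sham libraries and at 157.5, 152 and 175 CPM in the LPC_Ipsil libraries. Every LPC_Ipsil library lay below every sham library. The group means were 239.8 ± 50.3 and 161 ± 11.85 CPM (SD, n = 3 each), a log2 fold change of -0.57 ± 0.16 (SE; edgeR, adjusted p = 0.0485). Its values were 226, 225.5 and 185.5 CPM in LNIO_Ipsil, 239.5, 195 and 229.9 CPM in LPC_Contra and 266, 203 and 244 CPM in LNIO_Contra. All 9 of these libraries were above all 3 LPC_Ipsil libraries, and each of the 3 groups overlapped sham.

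Nefh, the heavy subunit, carries the phosphorylated side arms of mature axons. It was at 67.2, 94.6 and 69.3 CPM in sham and at 43.4, 41.2 and 58.4 CPM in LPC_Ipsil. The groups did not overlap, and the log2 fold change of -0.69 ± 0.24 did not pass the test (edgeR, adjusted p = 0.122). In LNIO_Ipsil it was at 77, 80.25 and 59.3 CPM, all above LPC_Ipsil and overlapping sham, in LPC_Contra at 81.1, 50.2 and 78.7 CPM and in LNIO_Contra at 105, 54.3 and 84 CPM. The lowest contralateral values, LPC_Contra replicate 2 and LNIO_Contra replicate 2, fell within the LPC_Ipsil range.

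Nefm, the medium subunit, spread widely within sham at 118, 231 and 200.3 CPM and lay at 162.5, 148 and 139 CPM in LPC_Ipsil, 121, 209 and 125 CPM in LNIO_Ipsil, 270.2, 185 and 169.9 CPM in LPC_Contra and 197, 174 and 197 CPM in LNIO_Contra. Sham replicate 1 was below all LPC_Ipsil libraries, so the groups overlapped, with a log2 fold change of -0.29 ± 0.25 (edgeR, adjusted p = 0.569). Ina, or alpha-internexin, the neurofilament partner of central neurons, was at 118, 146 and 137 CPM in sham and 108, 109 and 116 CPM in LPC_Ipsil. Its groups did not overlap, by a small margin, and its log2 fold change was -0.27 ± 0.14 (edgeR, adjusted p = 0.312). Ina was at 135, 139.6 and 109 CPM in LNIO_Ipsil, 155, 127 and 155 CPM in LPC_Contra and 183, 133 and 143 CPM in LNIO_Contra, where the contralateral means of 146 ± 16.1 and 153 ± 26.1 CPM exceeded sham at 134 ± 14.2 CPM by no more than the spread. Against sham the median of the 4 subunits was -0.43 at the LPC site, -0.13 at the L-NIO site, 0.01 in LPC_Contra and 0.06 in LNIO_Contra.

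**Figure D3:**
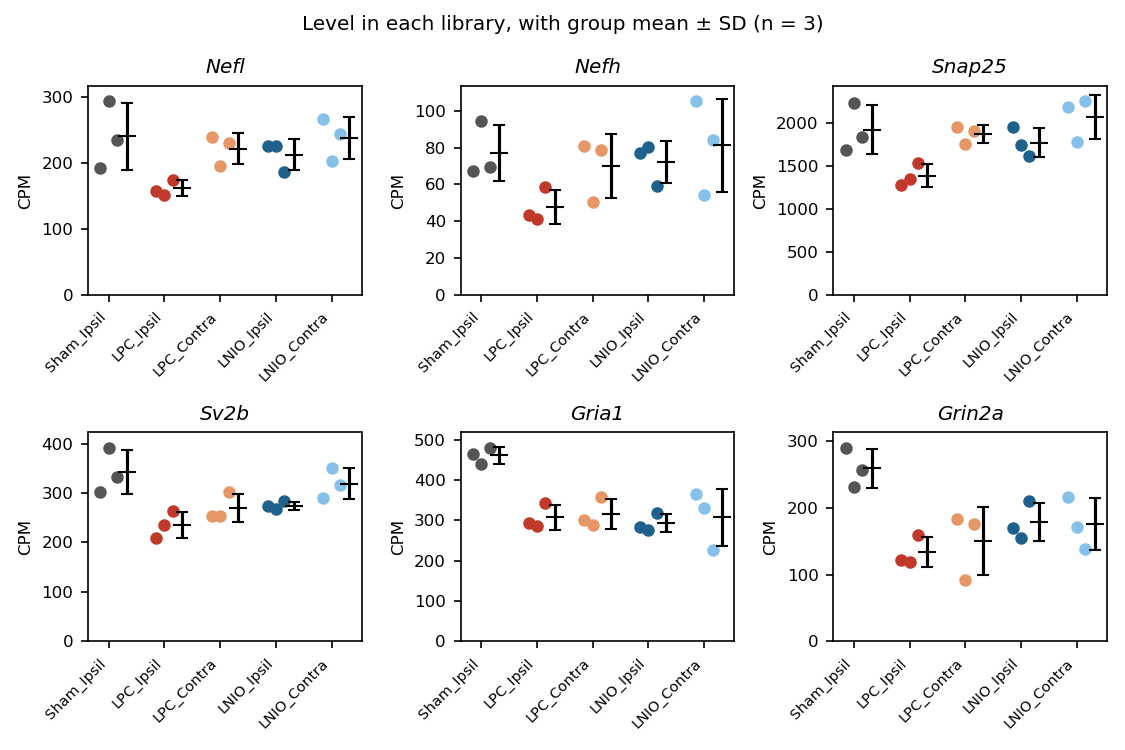
CPM in each library (points) and group mean ± SD (n = 3, black) for Nefl, Nefh, Snap25, Sv2b, Gria1 and Grin2a in the 5 groups, on axes starting at 0. Nefl, Nefh and Snap25 are lowest in LPC_Ipsil, while Gria1 is below all 3 sham values in all 12 other libraries.

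Of the other axonal genes, 0 of 7 were called at the LPC site by edgeR. At an unadjusted p under 0.05 there were 4 lower, against 7.43% of all genes. Stmn2, a tubulin-binding protein of growing and regenerating axons, was at 239.9, 296 and 209.9 CPM in sham and 139.8, 164 and 186 CPM in LPC_Ipsil. All LPC_Ipsil values were below sham, at a log2 fold change of -0.61 ± 0.19 (edgeR, adjusted p = 0.0759). It was at 254, 192 and 202 CPM in LNIO_Ipsil, 141.5, 237 and 191 CPM in LPC_Contra and 241, 214 and 256.5 CPM in LNIO_Contra. LPC_Contra replicate 1 was thus nearly as low as the lowest LPC_Ipsil library. Stmn3, a relative of Stmn2, was at 235.5, 262 and 237.5 CPM in sham and 159, 165 and 184 CPM in LPC_Ipsil, with no overlap and a log2 fold change of -0.53 ± 0.17 (edgeR, adjusted p = 0.08). In the other groups Stmn3 was at 220.4, 213 and 215 CPM (LNIO_Ipsil), 188, 312.5 and 199.6 CPM (LPC_Contra) and 263, 219.6 and 288 CPM (LNIO_Contra). The LNIO_Ipsil values all lay between the LPC_Ipsil and the sham values.

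Tubb3, the neuronal beta-tubulin, was at 176, 208 and 179.5 CPM in sham, 144, 143 and 168 CPM in LPC_Ipsil and 156, 174 and 146 CPM in LNIO_Ipsil, so both injury sites lay wholly below sham, the L-NIO site narrowly. It was at 162, 229 and 171 CPM in LPC_Contra and 199, 177 and 199 CPM in LNIO_Contra. The log2 fold changes of -0.31 ± 0.14 at the LPC site and -0.24 ± 0.14 at the L-NIO site did not pass (edgeR, adjusted p = 0.226 and 0.674). Scn8a, the sodium channel of nodes and initial segments, had a log2 fold change of -0.38 ± 0.18 at the LPC site, where the groups did not overlap. Gap43, a growth cone protein, Mapt, the axonal microtubule protein tau, and Kif5a, a motor of axonal transport, overlapped sham, at log2 fold changes of -0.17, -0.07 and 0.30. Kif5a was the one axonal member above 0, with group means of 3438 ± 258 CPM in sham and 4222 ± 664 CPM in LPC_Ipsil. Its mean was as high in LPC_Contra, at 4313 ± 801 CPM.

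Among genes of the cell body and whole neuron, edgeR called 0 of 4 at the LPC site, with 1 at an unadjusted p under 0.05. That gene was Thy1, a surface glycoprotein of projection neurons, at 406, 567 and 547 CPM in sham, 340.2, 354 and 422 CPM in LPC_Ipsil and 407.5, 414 and 398 CPM in LNIO_Ipsil. Sham replicate 1 lay within the range of both injury sites. Its log2 fold changes were -0.45 ± 0.14 and -0.32 ± 0.14 (edgeR, adjusted p = 0.0844 and 0.533). Thy1 was at 418, 483 and 429 CPM in LPC_Contra and 524, 422 and 497 CPM in LNIO_Contra, with every value above sham replicate 1 and below sham replicate 2.

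Rbfox3, which encodes the nuclear marker NeuN and so follows neuron cell bodies, was at 137, 212 and 186 CPM in sham, 139, 156 and 173 CPM in LPC_Ipsil, 165, 184 and 146 CPM in LNIO_Ipsil, 209, 199.7 and 230.2 CPM in LPC_Contra and 213, 183 and 176.5 CPM in LNIO_Contra. Both injury sites overlapped sham, at log2 fold changes of -0.19 ± 0.15 and -0.11 ± 0.15. LPC_Contra lay wholly above LPC_Ipsil. Uchl1, a ubiquitin hydrolase abundant in neurons, was at 181, 278.5 and 259 CPM in sham, 221, 233 and 251 CPM in LPC_Ipsil, 224, 238 and 175 CPM in LNIO_Ipsil, 222, 437 and 256 CPM in LPC_Contra and 262.5, 259.7 and 287 CPM in LNIO_Contra. LPC_Contra replicate 2 was the highest of the 15 libraries for Uchl1. Map2, the dendritic microtubule protein, was at 1332, 1404 and 1370 CPM in sham, 991, 1225 and 1231 CPM in LPC_Ipsil and 1328, 1230 and 1289 CPM in LNIO_Ipsil, so both injury sites lay wholly below sham. Its log2 fold changes of -0.25 ± 0.19 and -0.09 ± 0.19 did not pass (edgeR, adjusted p = 0.503 and 0.934). Map2 was at 1392, 787 and 1529 CPM in LPC_Contra, whose replicate 2 was the lowest of the 15 libraries, and at 1179, 1348 and 1185 CPM in LNIO_Contra.

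Of the 12 presynaptic genes, all 12 were below 0 at the LPC site with a median of -0.25, and Sv2b was the one called. Sv2b was at 303, 391 and 332 CPM in sham and 209.5, 234 and 263 CPM in LPC_Ipsil. There was no overlap, the means were 342 ± 44.9 and 236 ± 26.6 CPM (SD, n = 3), and Sv2b fell by a log2 fold change of -0.54 ± 0.13 (edgeR, adjusted p = 0.0301). It was at 273, 267 and 283 CPM in LNIO_Ipsil, 254, 253 and 301.5 CPM in LPC_Contra and 289, 351 and 315 CPM in LNIO_Contra. LNIO_Ipsil and, narrowly, LPC_Contra also lay below every sham library, at -0.32 ± 0.13 and -0.34 ± 0.13 (edgeR, adjusted p = 0.49 and 0.496).

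Snap25, the membrane-bound SNARE protein of vesicle fusion, was at 1690, 2243 and 1839 CPM in sham and 1277, 1349 and 1538 CPM in LPC_Ipsil. The groups did not overlap, and the log2 fold change of -0.47 ± 0.14 did not pass (edgeR, adjusted p = 0.0722). Snap25 was at 1958, 1750 and 1622 CPM in LNIO_Ipsil, 1963, 1764 and 1914 CPM in LPC_Contra and 2187, 1778 and 2255 CPM in LNIO_Contra. These 9 libraries were all above LPC_Ipsil and overlapped sham. Syt1, the calcium sensor of vesicle release, was at 1184, 1417 and 1260 CPM in sham, 773, 900.1 and 1018 CPM in LPC_Ipsil and 1097, 1058 and 1053 CPM in LNIO_Ipsil. Both injury sites lay below sham, at -0.52 ± 0.15 and -0.27 ± 0.15 (edgeR, adjusted p = 0.0534 and 0.653). Syt1 was at 1120, 889 and 1306 CPM in LPC_Contra and 1208, 1211 and 1119 CPM in LNIO_Contra. LPC_Contra replicate 2 was the lowest of the contralateral libraries and fell within the LPC_Ipsil range.

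The other 9 presynaptic genes overlapped sham at the LPC site. Sncb (beta-synuclein) and Syp (the vesicle membrane protein synaptophysin) were at -0.32 ± 0.17 and -0.29 ± 0.13. The synapsins Syn1 and Syn2, which tether vesicles, were at -0.175 and -0.25, Cplx1 (complexin, a clamp of fusion) at -0.24, and Vamp2 (the vesicle SNARE protein) at -0.16. Stx1a (the plasma membrane syntaxin) and Sv2a (the close relative of Sv2b) were at -0.11 and -0.06. Cplx2, the other complexin, was at 611, 1211 and 1148 CPM in sham and 945, 937 and 874.5 CPM in LPC_Ipsil, a log2 fold change of -0.11 ± 0.24 (edgeR, adjusted p = 0.856). The sham libraries spread over a wider range than the LPC_Ipsil libraries and enclosed it. The other Cplx2 entry was at 1.89 to 5.63 CPM over the 15 libraries and had a value of -0.07 ± 0.40 (edgeR, adjusted p = 0.952).

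Of the 9 postsynaptic genes, 8 were below 0 at the LPC site with a median of -0.40, and Grin2a and Gria1 were called. Grin2a, the NMDA receptor subunit that predominates in the adult forebrain, was at 289.9, 231 and 257 CPM in sham and 122, 119 and 159.9 CPM in LPC_Ipsil. All LPC_Ipsil values were below all sham values, with means of 134 ± 22.8 and 259 ± 29.5 CPM (SD, n = 3), and Grin2a fell by a log2 fold change of -0.96 ± 0.24 (edgeR, adjusted p = 0.0325). It was at 169.8, 155 and 210.4 CPM in LNIO_Ipsil, 184, 91.6 and 175 CPM in LPC_Contra and 216, 171 and 139 CPM in LNIO_Contra. No library of these 3 groups reached the sham range, and LPC_Contra replicate 2 had the lowest of the 15 values. Their log2 fold changes against sham were -0.54 ± 0.23, -0.79 ± 0.24 and -0.56 ± 0.23 (edgeR, adjusted p = 0.523, 0.492 and 1). Without LPC_Contra replicate 2 the LPC_Contra value was -0.53 (edgeR, adjusted p = 0.596).

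Gria1, which with Gria2 forms most AMPA receptors of forebrain pyramidal cells, was at 464, 439 and 479 CPM in sham and 293, 287 and 343 CPM in LPC_Ipsil. The groups were well apart, and Gria1 fell by a log2 fold change of -0.58 ± 0.16 (edgeR, adjusted p = 0.0459). It was at 285, 275 and 319 CPM in LNIO_Ipsil, 301, 288 and 357 CPM in LPC_Contra and 364, 331 and 227 CPM in LNIO_Contra. All 12 libraries outside sham were below the lowest sham library. The log2 fold changes were -0.65 ± 0.16, -0.55 ± 0.16 and -0.58 ± 0.16 in the order given (edgeR, adjusted p = 0.263, 0.492 and 1). The 4 group means outside sham lay between 293 ± 22.9 and 315 ± 36.5 CPM and did not differ beyond their spread.

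Gria2, the subunit that keeps AMPA receptors closed to calcium, was at 1001, 846 and 940.4 CPM in sham and 522, 620.4 and 673 CPM in LPC_Ipsil, with no overlap and a log2 fold change of -0.62 ± 0.18 (edgeR, adjusted p = 0.0585). It was at 753, 666 and 875 CPM in LNIO_Ipsil, 739.6, 433 and 685 CPM in LPC_Contra and 799, 749 and 736 CPM in LNIO_Contra. LPC_Contra and LNIO_Contra lay below sham, and LNIO_Ipsil replicate 3 fell within the sham range. Grin2b, the NMDA subunit of younger synapses, was at -0.40 in LPC_Ipsil, -0.55 in LNIO_Ipsil, -0.30 in LPC_Contra and -0.54 in LNIO_Contra, and without LPC_Contra replicate 2 the LPC_Contra value was -0.05. Grin1, the obligate NMDA subunit, was at -0.43 and -0.22 at the injury sites and at -0.06 and -0.08 contralaterally. The scaffold, kinase and calmodulin-related genes of the spine lay nearer to 0 at the LPC site: Dlg4, which encodes PSD-95, was at 0.05 ± 0.17, Camk2a at -0.16 ± 0.20, Camk2b at -0.18 ± 0.17 and Nrgn, the calmodulin-binding neurogranin, at -0.17 ± 0.26, all overlapping sham. Whether these differ from the receptor subunits was not tested.

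The genes of GABA synthesis, which mark inhibitory neurons, were not called at the LPC site. Gad1 was at 223, 314 and 335 CPM in sham, 241, 297 and 264 CPM in LPC_Ipsil, 237, 286 and 229.7 CPM in LNIO_Ipsil, 368, 311 and 324 CPM in LPC_Contra and 295, 327 and 323 CPM in LNIO_Contra. LNIO_Ipsil lay wholly below LNIO_Contra, and LPC_Ipsil wholly below LPC_Contra. Gad2 was at 138, 173 and 169 CPM in sham, 148, 205 and 178.5 CPM in LPC_Ipsil, 121, 162 and 138 CPM in LNIO_Ipsil, 217, 150.3 and 179 CPM in LPC_Contra and 135, 197 and 155 CPM in LNIO_Contra, and all groups overlapped. Against sham, Gad1 and Gad2 were at -0.12 ± 0.15 and 0.15 ± 0.18 at the LPC site (edgeR, adjusted p = 0.72 and 0.711). A separate list of 7 markers of inhibitory interneurons had 6 below 0 at the LPC site, with a median of -0.56. edgeR called 0 of the 7, with 4 lower at an unadjusted p under 0.05, against 7.43% of all genes. DESeq2 called 2 lower, against 2.28% of all genes, and limma called 0. In 4 of them every LPC_Ipsil library lay below every sham library, against 13.5% of all genes. The summed level was 300.9 to 331.9 CPM in sham and 224.3 to 259.1 CPM in LPC_Ipsil.

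Levels of different genes were set side by side on the authors' FPKM scale, which divides by a length per gene. The order of genes below rests on that length, which was not checked against the transcripts present. In sham the highest of the 38 was Kif5a at 462 ± 34.8 FPKM (SD, n = 3), followed by Nrgn at 407 ± 131, Snap25 at 266 ± 37.7 and Camk2a at 252 ± 47.8 FPKM. Of these neighbours, Kif5a and Nrgn did not differ beyond their spread, nor did Snap25 and Camk2a. Among neurofilament subunits the order was Nefl at 66.6 ± 13.5, Ina at 38.7 ± 3.78, Nefm at 29.7 ± 9.26 and Nefh at 18.1 ± 3.47 FPKM, with Ina and Nefm within their spread. Receptor subunits ran from Gria1 at 71.7 ± 3.35 and Gria2 at 56.2 ± 5.17 through Grin1 at 28.3 ± 3.5 to Grin2b at 13.8 ± 0.773 and Grin2a at 13.6 ± 1.67 FPKM, the 2 lowest of the 38. The axonal members thus ran from 18.1 to 462 FPKM and the synaptic members from 13.6 to 407 FPKM. Over the 15 libraries the range in CPM was narrowest for Mapt, whose highest library was 1.27-fold its lowest, and widest for Grin2a at 3.17-fold.

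RefSeq promoter windows (build GRCm38.p6) were found for 24 of the 38 genes, in 32 windows, and were searched on both strands for GGGCGG, the GC box bound by Sp1-type factors, and for the left and right arms of the RE1 element, TTCAGCACC and GGACAGC. RE1 is bound by REST, a repressor of neuronal genes in cells other than neurons. The 250 bases before the start of 3 members are shown because each holds one of these motifs, from a receptor subunit, a neurofilament gene and a vesicle gene, with the motif in capitals. Gria2 (chr3:80802836-80803085, minus strand) holds the right arm, read on the opposite strand, 171 bases before the start. Ina (chr19:47014431-47014680, plus strand) holds GC boxes, also on the opposite strand, 111 and 12 bases before it. Syn1 (chrX:20920919-20921168, minus strand) holds the left arm 232 bases before it.
Gria2: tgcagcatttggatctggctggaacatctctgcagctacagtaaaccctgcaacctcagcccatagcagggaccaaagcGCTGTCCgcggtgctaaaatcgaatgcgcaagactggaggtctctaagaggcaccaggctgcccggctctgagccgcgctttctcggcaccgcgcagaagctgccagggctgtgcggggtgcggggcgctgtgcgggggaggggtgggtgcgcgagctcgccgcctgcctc
Ina: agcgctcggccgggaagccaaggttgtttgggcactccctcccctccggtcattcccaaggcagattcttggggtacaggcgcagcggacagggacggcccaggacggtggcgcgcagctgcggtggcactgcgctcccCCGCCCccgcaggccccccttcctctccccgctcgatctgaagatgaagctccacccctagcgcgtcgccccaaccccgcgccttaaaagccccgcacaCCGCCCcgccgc
Syn1: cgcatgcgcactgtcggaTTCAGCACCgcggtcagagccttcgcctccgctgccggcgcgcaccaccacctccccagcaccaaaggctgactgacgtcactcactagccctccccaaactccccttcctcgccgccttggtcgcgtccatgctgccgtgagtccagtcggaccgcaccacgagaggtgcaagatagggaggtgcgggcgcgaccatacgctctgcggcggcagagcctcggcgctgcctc
The right arm occurred in 9.38% of the members' windows (Gad2, Gria2 and Map2) and in 5.28% of all 32851 windows. The left arm occurred in 3.12% (1 window, of Syn1) and 0.301%, and the GC box in 43.8% and 32.7%. The TATA box (TATAAA), also searched for, occurred in 9.38% (Gad1 and Sv2b) and 12.4%. These are letter matches only and say nothing of binding in this tissue.

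Each injured side was also compared with its own contralateral side, without the sham libraries. LPC_Ipsil was below LPC_Contra in 38 of 38 members, with a median of -0.30 against 0.01 over all genes. edgeR called 0 of them and 0% of all genes. DESeq2 called Snap25 lower (against 0.416% of all genes), limma called 0, and edgeR without LPC_Ipsil replicate 3 called Sncb lower (against 0.286%). At an unadjusted p under 0.05 there were 12 members lower, against 3.59% of all genes, and in 11 the sides did not overlap, against 6.59%. The smallest p-values were those of Cplx1, Snap25, Sncb, Nefl and Rbfox3, at log2 fold changes of -0.53 ± 0.17, -0.44 ± 0.14, -0.50 ± 0.17, -0.46 ± 0.16 and -0.45 ± 0.15 (edgeR, adjusted p = 0.166, 0.167, 0.183, 0.193 and 0.194). Among the receptor subunits that were low on both sides, Gria1 was at -0.04 ± 0.16, Gria2 at -0.03 ± 0.18 and Grin2a at -0.17 ± 0.23 between sides. Without LPC_Contra replicate 2 these values were -0.09, -0.23 and -0.42. edgeR then called 0 members, 14 were lower at an unadjusted p under 0.05, against 4.32% of all genes, and the median was -0.34. Without LPC_Ipsil replicate 3 the median was -0.36, with 38 of 38 below 0.

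LNIO_Ipsil was below LNIO_Contra in 34 of 38 members, with a median of -0.21 against -0.02 over all genes. edgeR, DESeq2 and limma each called 0 members, against 0%, 0.0122% and 0% of all genes called lower. In edgeR 1 member, Gad1 at -0.33 ± 0.15, was lower at an unadjusted p under 0.05, against 1.25% of all genes, and 8 did not overlap, against 5.24%. Without LNIO_Ipsil replicate 1 edgeR called 0 members, with 33 of 38 below 0 and a median of -0.20. Members lower at that p then numbered 0, against 0.753% of all genes. The labels name no pairs. Same-numbered L-NIO libraries of the 2 sides deviated together, which does not settle whether the sides were paired. A fit of the sides as pairs within these 6 libraries was added after seeing the data, as an alternative only. That fit called 683 genes, 0.537% of those tested being called lower, and among them 0 members, with 9 members lower at an unadjusted p under 0.05 (Ina, Tubb3, Stmn3, Gap43, Uchl1, Sv2a, Cplx2, Camk2b and Gad1), against 4.45% of all genes. Gad1 was lower by -0.32 in that fit (edgeR, adjusted p = 0.134).

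LNIO_Ipsil and LPC_Ipsil were compared directly. edgeR, DESeq2 and limma called 0 members, against 0%, 0.0357% and 0% of all genes called lower. Nefl, Nefh, Stmn2 and Snap25 were higher at the L-NIO site at an unadjusted p under 0.05, against 2.95% of all genes, at log2 fold changes of 0.40 ± 0.16, 0.60 ± 0.24, 0.40 ± 0.19 and 0.36 ± 0.14 (edgeR, adjusted p = 0.56, 0.56, 0.594 and 0.56). Kif5a was lower at -0.41 ± 0.18, against 5.44% of all genes. In 7 members every LNIO_Ipsil library was above every LPC_Ipsil library, against 6.07% of all genes, and 1 member was wholly below, against 7.61%. The median over members was 0.09, with 15 of 38 below 0. Without LNIO_Ipsil replicate 1 the median was 0.105, with 13 of 38 below 0, and edgeR called 0 members. Without LPC_Ipsil replicate 3, the library with few microglial transcripts, the median was 0.16, with 11 of 38 below 0. edgeR then called 241 genes, 1.23% of those tested being called lower, and among them 0 members. Nefl, Nefh, Stmn2 and Snap25 were at 0.47, 0.78, 0.52 and 0.45 in that fit (edgeR, adjusted p = 0.256, 0.191, 0.288 and 0.226). Kif5a was at -0.28 and no longer passed an unadjusted p under 0.05 (edgeR, unadjusted p = 0.181), and 0 members were lower at that p, against 8.93% of all genes. Higher at that p were Nefl, Nefh, Stmn2, Stmn3, Snap25, Syt1, Stx1a, Sv2b, Sncb and Grin2a. The share of all genes higher at that p was not computed for this fit, so this list only describes the members. When the side difference after L-NIO was set against the side difference after LPC, edgeR called 0 members, with 0 at an unadjusted p under 0.05, against 0% and 1.02% of all genes in either direction, and DESeq2 and limma called 0. Its median over members was 0.09, and it was 0.11 without LNIO_Ipsil replicate 1, 0.17 without LPC_Ipsil replicate 3 and 0.17 without LPC_Contra replicate 2. In these fits edgeR also called 0 members, with 0 lower at an unadjusted p under 0.05, against 0.341%, 2.63% and 1.45% of all genes. Higher at that p without LPC_Contra replicate 2 were Map2 at 0.41 and Scn8a at 0.44 (edgeR, unadjusted p = 0.0325 and 0.037). A difference between the models in the size of the side difference was thus not shown for any of the 38 genes at an adjusted p under 0.05.

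Axonal and synaptic members had like mean differences at the LPC site. At the LPC site the mean log2 fold change was -0.33 over the 11 axonal members and -0.32 over the 21 synaptic members, a difference of -0.01. At the L-NIO site the means were -0.16 and -0.25, a difference of 0.09. The difference was 0.05 in LPC_Contra and 0.12 in LNIO_Contra against sham, -0.06 between the LPC sides and -0.03 between the L-NIO sides. In single libraries, the axonal score minus the synaptic score (each the mean log2 CPM relative to sham) ran from -0.107 in LPC_Contra replicate 3 to 0.227 in LNIO_Contra replicate 3. Within sham alone it ran from -0.106 to 0.0756, and in LPC_Ipsil it was 0.0027, -0.0026 and -0.0308, inside that range. The 2 highest values, 0.227 and 0.197, were those of LNIO_Contra replicate 3 and LPC_Contra replicate 2. As a single pair, Nefl counts were 10.8% to 13% of Snap25 counts in all 15 libraries. That ratio is of CPM, not divided by length, so only its steadiness between libraries can be read.

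**Figure D4:**
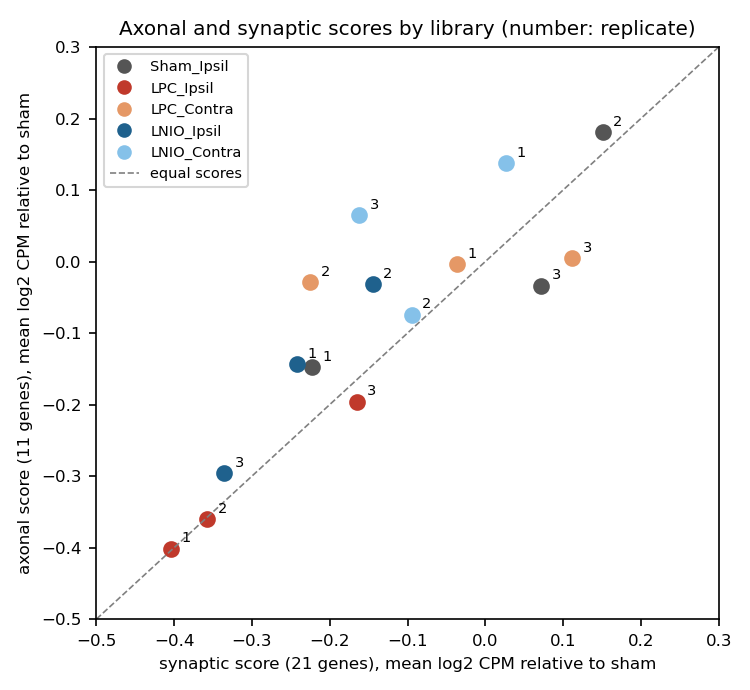
Axonal score (11 genes, vertical) against synaptic score (21 genes, horizontal) in each of the 15 libraries, as mean log2 CPM relative to the sham mean, with the replicate number beside each point and a dashed line of equal scores. LPC_Ipsil points lie on or just below the line, with replicates 1 and 2 at its lower end, and the points farthest above it are LNIO_Contra replicate 3 and LPC_Contra replicate 2.

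By role the medians spread more than by class. At the LPC site the medians were -0.43 for neurofilament, -0.31 for other axonal, -0.22 for soma and dendrite, -0.25 for presynaptic and -0.40 for postsynaptic genes, and 0.01 for GABA synthesis. In LNIO_Contra they were 0.06, 0.03, 0.01, 0.05, -0.27 and 0.07 in the same order, the postsynaptic genes alone being below 0. In LPC_Contra the postsynaptic median was -0.06 and the presynaptic median 0.14. These medians describe the members and were not tested against one another.

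Most glutamate receptor genes are long by the length behind the FPKM values, and length moved with the values. This length, the ratio of counts to FPKM, is the one the authors divided by and stands for transcript length here. It was not checked against the transcripts present. Its median was 10.32 kb in the postsynaptic role, 5.09 kb in the presynaptic role and 3.92 kb among neurofilament subunits. Across the 38 genes, which share libraries and are not independent, the rank correlation of length with log2 fold change was -0.72 in LNIO_Contra, -0.52 in LNIO_Ipsil, -0.44 in LPC_Contra and -0.16 in LPC_Ipsil, each against sham. Over all genes tested it was -0.31, -0.22, -0.27 and -0.13 in the same order. Between sides it had the opposite sign over the 38 genes, at 0.60 for the LPC sides and 0.59 for the L-NIO sides, against 0.11 and 0.05 over all genes. By library, the correlation of length with the deviation of a gene from its mean was lowest in LPC_Contra replicate 2 (-0.72) and LNIO_Contra replicate 3 (-0.70) and highest in Sham_Ipsil replicate 3 (0.54). With a per-library correction for length the correlations against sham became 0.04, -0.07, -0.13 and -0.35 for LPC_Ipsil, LNIO_Ipsil, LPC_Contra and LNIO_Contra, and those between sides became 0.34 and 0.46. The postsynaptic medians then became -0.24, -0.19, 0.01 and -0.14. Gria1, at 6.43 kb, is shorter than Gria2 (16.5 kb), Grin2a (19.1 kb) and Grin2b (26.4 kb). In the same order Gria1 went from -0.58, -0.65, -0.55 and -0.58 to -0.59, -0.63, -0.52 and -0.55 with the correction. Grin2a went from -0.96, -0.54, -0.79 and -0.56 to -0.83, -0.41, -0.62 and -0.41. Gria2 went from -0.62, -0.28, -0.59 and -0.29 to -0.52, -0.17, -0.43 and -0.14, and Grin2b from -0.40, -0.55, -0.30 and -0.54 to -0.24, -0.41, -0.09 and -0.38. Each of these values was below 0 with and without the correction. At the LPC site 8 members were then called lower, against 2.04% of all genes (Nefl, Stmn3, Thy1, Syt1, Sv2b, Grin2a, Gria1 and Gria2). In the other 3 comparisons with sham edgeR called 0 members with this correction, with 9, 5 and 3 lower at an unadjusted p under 0.05 in LNIO_Ipsil, LPC_Contra and LNIO_Contra, against 3.94%, 5.44% and 1.8% of all genes.

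**Figure D5:**
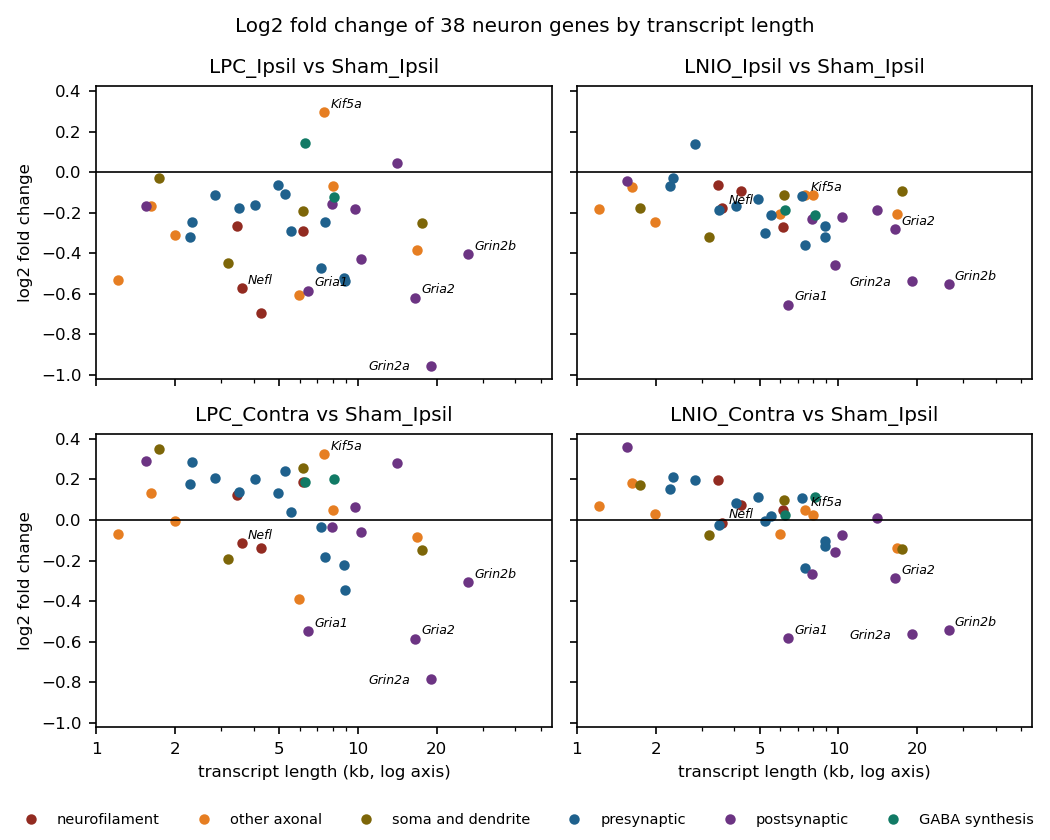
Log2 fold change against sham (vertical) by the transcript length implied by counts and FPKM, in kb (horizontal, log axis). The 38 genes are coloured by role, in 4 panels for the 4 groups outside sham. In the contralateral panels short genes lie mostly above 0 and long genes mostly below, with Grin2a and Grin2b at the long end. Gria1, at 6.43 kb, is below -0.5 in all 4 panels.

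Wider lists of the same classes were examined beside the members. Of 28 further genes of axonal cytoskeleton, transport, nodes and channels, edgeR called 0 at the LPC site, and the median was -0.15. At an unadjusted p under 0.05 there were 4 lower, against 7.43% of all genes, and 1 higher. DESeq2 called 2 of them lower, against 2.28% of all genes, and limma 0. Of 40 further synaptic genes, 6 fell and 0 rose at the LPC site, where 0.994% of all genes were called lower, and the median was -0.28. DESeq2 called 7 lower, against 2.28% of all genes, and limma 0. Among them were Napb, an attachment protein that helps take SNARE complexes apart, and Gria3, another AMPA subunit. Napb and Gria3 fell by -0.55 ± 0.12 and -0.49 ± 0.12 (edgeR, adjusted p = 0.0247 and 0.028). As with the members, edgeR called 0 of this list with only the groups compared and without any 1 of Sham_Ipsil replicates 1 to 3 or LPC_Ipsil replicates 1 and 2, and 5 without LPC_Ipsil replicate 3. At the L-NIO site edgeR, DESeq2 and limma called 0 of either list. In edgeR 3 axonal and 5 synaptic genes were lower there at an unadjusted p under 0.05, against 3.1% of all genes.

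A list of 15 genes known to be switched on in neurons after axon injury had 13 tested members, of which 5 rose and 1 fell at the LPC site, where 4.19% of all genes were called higher and 0.994% lower. DESeq2 also called 5 higher and 1 lower, and limma called 0. Of all genes DESeq2 called 2.28% lower, and its share called higher is not given here. edgeR called 0 of them with only the groups compared or when any 1 of the same 5 sham and LPC_Ipsil libraries was left out, and 5 higher and 1 lower without LPC_Ipsil replicate 3. The 4 smallest adjusted p-values among those that rose were Csf1 (1.38 ± 0.21), a growth factor for microglia, Atf3 (4.10 ± 0.83), a stress-induced transcription factor, Hspb1 (1.60 ± 0.36), a small heat shock protein, and Stat3 (0.65 ± 0.16), a cytokine-activated transcription factor, with edgeR adjusted p of 0.0243, 0.0243, 0.0258 and 0.0297. Atf3 was at 15.7, 10.2 and 0.665 CPM in LPC_Ipsil against 0.402 to 0.608 CPM in sham, so replicate 3 was near the sham level. Csf1 was at 104.8, 85.9 and 48.3 CPM against 28.0 to 34.5 CPM. These genes are also made by glia or immune cells. The gene that fell, Adcyap1 at -1.26 ± 0.32 (edgeR, adjusted p = 0.0336), was named after its value was seen. At the L-NIO site edgeR called 0 of the 13, with 2 higher at an unadjusted p under 0.05, DESeq2 called 1 higher, and limma called 0.

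Some markers of other cells also differed at the LPC site. Of 8 microglial markers, 8 rose at the LPC site, among them Csf1r at 2.40 ± 0.45, Cx3cr1 at 2.40 ± 0.45, Mpeg1 at 4.14 ± 0.83 and Trem2 at 3.57 ± 0.74 (edgeR, adjusted p = 0.0243, 0.0243, 0.0243 and 0.0245). Their summed level was 268 to 323 CPM in sham, 385 to 3383 in LPC_Ipsil, 762 to 1294 in LNIO_Ipsil, 305 to 448 in LPC_Contra and 258 to 348 in LNIO_Contra. Of 6 astrocyte markers 2 rose, Gfap at 2.05 ± 0.46 and Aldh1l1 at 0.66 ± 0.15 (edgeR, adjusted p = 0.027 and 0.0256), and their summed level was 4513 to 5083 CPM in sham and 5600 to 7482 CPM in LPC_Ipsil. Of 6 markers of oligodendrocyte precursors 3 rose, Cspg4, C1ql1 and Gpr17 at 1.11, 0.998 and 0.90 (edgeR, adjusted p = 0.0317, 0.0344 and 0.048), with sums of 529.6 to 669.0 CPM in sham and 718.5 to 817.1 CPM in LPC_Ipsil. Of 8 neuroblast markers 1 rose, Sox11 at 0.66 (edgeR, adjusted p = 0.0307), and 7 lay wholly above sham. Of 4 endothelial markers edgeR called 0, with 3 higher at an unadjusted p under 0.05 and 4 wholly above sham, DESeq2 called 1 higher and limma 0. The shares of all genes wholly above sham, or higher at that p, are not given here. These neuroblast and endothelial counts therefore only describe the markers. For mature oligodendrocytes and ependyma edgeR, DESeq2 and limma called 0 markers, with 0 of 10 and 1 of 5 at an unadjusted p under 0.05 in edgeR. On all these marker lists, microglial and cortical markers included, the calls were 0 in edgeR with only the groups compared and in each of the fits without 1 sham library or without LPC_Ipsil replicate 1 or 2.

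In LPC_Ipsil the library with the least microglial signal, replicate 3, was also the one with the highest Snap25, Syt1, Sv2b, Gria1 and Grin2a. Each of these genes was still lower in replicate 3 than in every sham library. Of 9 cortical excitatory markers 1 fell, Neurod6 at -1.496 ± 0.34 (edgeR, adjusted p = 0.0262), and the summed level was 1064 to 1339 CPM in sham and 807 to 1150 CPM in LPC_Ipsil. Of 9 striatal markers edgeR, DESeq2 and limma called 0 at the LPC site, with 0 at an unadjusted p under 0.05 in edgeR, and their summed level in sham ran from 441 CPM in replicate 1 to 2509 CPM in replicate 3. No marker of these lists was at 0 counts in any library. The part of RNA from these other cells, of cortical or striatal tissue and of transcript length in the lower levels of the neuron genes was not tested.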

How the data were processed

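RNA-seq of 15 mouse corpus callosum libraries was analysed, 3 in each of 5 groups taken from the sample labels. The deposited count table holds whole-number counts per gene symbol, and a second deposited table holds FPKM computed by the authors for the same genes. Per the submitters' processing notes, HISAT2 2.2.1, R 4.4.2 and the GRCm39 build were used, while the counting program, strand setting and annotation were not given in the sources used here. The table holds 74 rows that repeat a symbol already used; a repeated symbol was read from its row of most counts, which among the members applied to Cplx2. The deposited counts were filtered with edgeR 4.0.16 (filterByExpr by group, minimum count 10, minimum total 15), scaled by TMM (factors 0.966 to 1.06) and fitted with the robust quasi-likelihood test over all 15 libraries, with 1 coefficient per group and no block (common dispersion 0.0453), in R 4.3.3. DESeq2 1.42.0 and limma 3.58.1 on log2(FPKM + 0.1) were alternatives, as were DESeq2 size factors in edgeR, no filter, a replicate block, only the groups compared and leaving out each library. A per-library length correction and pairs within the 6 L-NIO libraries were added after seeing the data. Fits were tested on simulated data. Scores are means of log2(CPM + 0.5) relative to the sham mean. Deviations of same-numbered libraries correlated at 0.62, 0.374 and 0.238 between the L-NIO sides and at -0.056, 0.161 and 0.336 between the LPC sides. The labels name no pairs, and the LPC value of replicate 3 exceeded the L-NIO value of replicate 3. These correlations therefore do not settle whether the sides of either model were paired. Pairs of libraries within a group differed by a chi-square per degree of freedom of 10.1 to 63.7, so none was a duplicate.

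The 38 genes, their roles, the wider lists and the markers were chosen with earlier results of these data known. Genes with values in every library were set by role, and other listed genes were named when called, as the 4 smallest adjusted p-values per list. Some listed genes that this rule would name are not reported here. Promoter windows came from RefSeq, and 14 members without an entry were not searched.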

Additional observations from a re-analysis of the deposited data

How the results depend on the processing

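The single-gene log2 fold changes recomputed under the alternatives were those at an unadjusted p under 0.05 in the main fit. The neurofilament subunits and Snap25 were added for each injured site against sham and against its contralateral side. With this choice, and refits that share most libraries, few sign changes could arise, so the stability of direction was not tested. Only the 4 members called at the LPC site had a call to lose. Of these values, 731 stayed on their side of the threshold, 32 lost the call, 19 gained one and 4 turned sign. The 4 were small values: Nefh at the L-NIO site against sham was 0.0482 without Sham_Ipsil replicate 2 and 0.0391 without LNIO_Ipsil replicate 3, Ina there ran from -0.132 to 0.0493 (without LNIO_Ipsil replicate 3), and Nefh between the L-NIO sides ran from -0.389 to 0.0764 (without LNIO_Contra replicate 1). The 4 members called at the LPC site became 2 with no filter (Sv2b and Grin2a), 10 in DESeq2, 0 in limma, 2 with the replicate block (Sv2b and Grin2a), 0 with only the groups compared (16 at an unadjusted p under 0.05, against 11.4% of all genes), 8 with the length correction and 0 to 9 when 1 library was left out. At the L-NIO site DESeq2 and edgeR with only the groups compared each called 1 member, Gria1. Between the LPC sides DESeq2 called 1, and leaving out 1 library gave 0 to 1. The replicate block changed no other count of members. Leaving out 1 library moved the axonal median from -0.40 to -0.19 between the LPC sides (the latter without LPC_Contra replicate 2), from -0.30 (without LNIO_Contra replicate 2) to -0.11 (without LNIO_Ipsil replicate 3) between the L-NIO sides and from 0.0221 to 0.221 for the difference of side differences (the former without LPC_Contra replicate 2). All 111 recomputed axonal minus synaptic differences moved by less than the spread between replicates. Over all genes at the LPC site, edgeR called 871, DESeq2 1471, edgeR with no filter 524, limma 3, only the groups compared 0, and leave-one-out fits 0 to 1646. In the other comparisons edgeR called 0 or 1 gene, and DESeq2 called 230 at the L-NIO site, 669 between the LPC sides, 186 between the L-NIO sides, 28 in LPC_Contra, 16 between the injury sites and 2 in LNIO_Contra. With only the groups compared, 378 genes were called at the L-NIO site, 358 between the L-NIO sides and 3 in LNIO_Contra, and without LPC_Ipsil replicate 3 there were up to 950 between the LPC sides and 241 between the injury sites. The causes of these differences were not tested.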
